A study of Homo sapiens with 24 samples.

Results

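The 9 genes described here are ATF4, the central transcription factor of the integrated stress response, its bZIP partners and relatives CEBPB, CEBPG, DDIT3, ATF3 and ATF5, the stress-induced regulators TRIB3 and NUPR1, and CHAC1, an enzyme that cleaves glutathione. They were chosen by symbol and not by a threshold on their values, but with earlier results of these data known. Counts of members called are therefore not independent evidence of their direction. Each symbol matched 1 of the 60675 gene identifiers, and all 9 were among the 20668 genes tested. Bulk RNA was sequenced from HCT116, a human colorectal carcinoma cell line, in 3 versions labelled wild type (WT), Mutant and Null for p53. Each line received solvent, 20 uM APR-246 alone, 6 Gy of irradiation alone, or APR-246 ahead of irradiation (the combination), in 12 groups of 2 libraries, 24 libraries in all. APR-246 is a small molecule developed to restore function to mutant p53, and it also binds glutathione. Irradiated cells were harvested 72 hours after exposure, and the labels give no time for solvent or for APR-246 alone.

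All groups shared the parental HCT116 background and the same serum-containing McCoy 5A medium. The labels name neither the p53 mutation nor how the Mutant and Null lines were made, and each p53 status is 1 line, so line and p53 status cannot be told apart. The labels number the libraries of a group without saying whether they are separate cultures, and p-values therefore refer to the spread among these libraries, which may be technical.

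In the integrated stress response, kinases that sense amino acid shortage, misfolded protein, heme loss or double-stranded RNA phosphorylate the initiation factor eIF2. General translation falls, while upstream reading frames in its messenger RNA let ATF4 protein be made. ATF4 then binds DNA with C/EBP partners and switches on genes of amino acid supply, redox control and, under lasting stress, cell death. ATF4 messenger RNA is therefore only a partial reading of ATF4 activity, and protein was not measured here.

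Promoter windows were searched because ATF4 and its partners bind a composite C/EBP-ATF element, and the matches in the members are shown for that reason. RefSeq (GRCh38.p14) held a window from 250 bases before to 50 bases after the start for 8 of the 9 members, NUPR1 being the exception. A single window per gene was searched, so starts of other transcripts may lie outside it. On both strands, TGATGNAA was found in 2 of these members, ATF3 and CHAC1, against 3.67% of 27305 windows, and its form TGATGCAA in 1, CHAC1, against 0.923%. The cAMP response element TGACGTCA was in no member and 1.98% of windows, and its short form TGACG, contained in it, was in 1 member, ATF4, and 25.0%. The endoplasmic reticulum stress element was in no member and 0.0806% of windows. The stretches below are 30 bases each on the plus strand, which is the strand of these genes, with the match in capitals. A match on the opposite strand appears as its reverse complement.
ATF3, chr1:212565205-212565234: aaaggtcaggaTGATGGAAggctgtcatat
CHAC1, chr15:40953251-40953280: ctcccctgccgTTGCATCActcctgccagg
ATF4, chr22:39520388-39520417: actccttttctCGTCAcagctacgccctgg
ATF4, chr22:39520423-39520452: aacggttggggCGTCAaagggagggaggga
The ATF3 stretch lies outside any GENCODE 29 gene, at -202 to -173 from the RefSeq start. The CHAC1 stretch, at -220 to -191, and both ATF4 stretches, at -171 to -142 and -136 to -107, lie before the RefSeq start but in exons that GENCODE 29 gives to other transcripts of the same genes. These matches describe sequence only and were not tied to any value below.

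Totals were 53184139 to 58058729 reads per library. Of 9 colon epithelium markers, EPCAM, CDH1, KRT8, KRT18 and CDX2 were expressed in all libraries, while KRT20, VIL1, CDX1 and LGALS4 were at 2.14 CPM (counts per 1000000 reads assigned to genes) or below in every library. Markers of blood cells summed to 0.231 to 3.01 CPM, of endothelium to 0.741 to 3.91 CPM and of fibroblasts to 11.8 to 69.0 CPM, nearly all of it COL1A1. Mitochondrially encoded RNA was 6.82 to 10.9% of reads in solvent and 5.93 to 13.7% under treatment. WT APR-246 library 1 stood apart from its label: over 10744 genes its profile was nearest to WT solvent library 1 (Pearson r = 0.961). WT APR-246 library 2 was nearest to Mutant APR-246 library 2 (r = 0.434). Mutant APR-246 library 1 was also nearest to solvent library 1 of its own line, at a lower r of 0.801. Values also shifted with library number, as given below. A failed treatment and an exchange or wrong label of WT APR-246 library 1 cannot be told apart. Averaged APR-246 values are given with and without WT APR-246 library 1 below for the members and for the genes of other lists that are named with a call. In bulk RNA, fewer cells expressing a gene and less RNA per cell cannot be told apart.

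Averaged over the 3 lines, every member had a lower mean after APR-246, after irradiation and after the combination than in solvent. On the log2(CPM + 0.5) scale used for the main values CHAC1 had the lowest difference after each treatment, at 0.161, 0.143 and 0.121 of its solvent level. That order depends on the scale at low levels, since edgeR on the recovered reads put NUPR1 (-2.83, -3.39 and -3.97) beyond CHAC1 (-2.51, -2.88 and -3.14). ATF4 itself fell to between 0.377 and 0.527 of its solvent level. ATF3 fell only after APR-246 by this test, and CEBPB was not called in any of the 3 comparisons. A gene was called at a limma adjusted p (Benjamini-Hochberg) of 0.05 over all genes tested. On that rule 8 of 9 members were called lower after APR-246, where 1.95% of all genes were, 7 of 9 after irradiation against 6.13%, and 7 of 9 after the combination against 6.29%. The count of 8 after APR-246 was 4 without library 2 of any 1 of the 6 solvent and APR-246 groups, 6 to 8 without any 1 of the other libraries, and 5 with no filter on low values. No member was called higher, where 1.19, 6.84 and 7.63% of all genes were. The median log2 difference of the 9 members was -1.55, -2.12 and -1.96, and that of all genes tested -0.0080, -0.0081 and 0.0060. These 3 comparisons share the same 6 solvent libraries, so a change under treatment and a high level in those solvent libraries cannot be told apart.

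**Figure D1:**
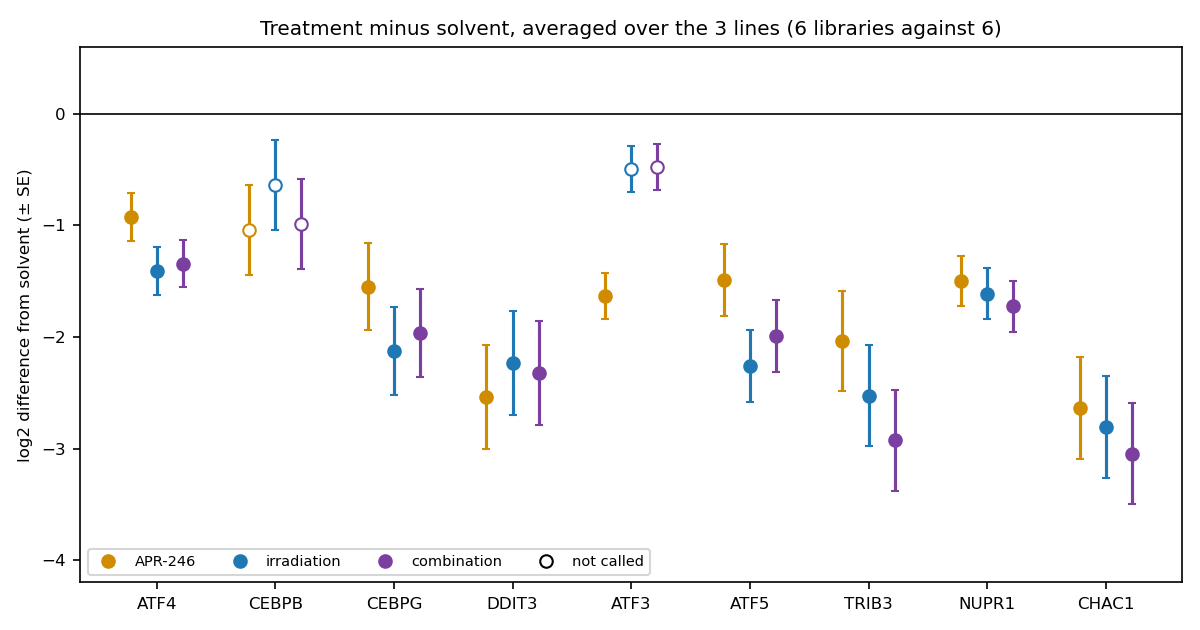
Log2 difference of each treatment from solvent, averaged over the 3 lines (6 libraries against 6), for the 9 members on the x axis; points are estimates, bars are standard errors, and open points were not called. All 27 points lie below 0, CHAC1 lowest on this scale at -2.64, -2.81 and -3.05, while ATF3 separates APR-246 (-1.63) from irradiation (-0.49) and the combination (-0.48).

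ATF4 (chr22:39519695-39522685, GENCODE 29, GRCh38), the hub of the response, had the highest median level per length in solvent. In solvent its libraries 1 and 2 were at 885 and 735 CPM in WT, 806 and 831 in Mutant, with 816 and 676 in Null. After APR-246 they were at 839 and 283 CPM in WT, 499 and 383 in Mutant, with 365 and 427 in Null. After irradiation all 6 libraries were at 261 to 342 CPM and after the combination at 277 to 426 CPM. Thus 17 of 18 treated libraries lay below every solvent library, and the exception was WT APR-246 library 1, within the solvent range. The averaged log2 differences were -0.92 ± 0.21 (SE) after APR-246 (limma adjusted p = 0.0255), -1.41 ± 0.21 after irradiation (adjusted p = 0.000675) and -1.34 ± 0.21 after the combination (adjusted p = 0.000741). The call after APR-246 was lost without any 1 of the 12 libraries other than WT solvent library 1, WT APR-246 library 1 and Mutant solvent library 1, with values of -0.71 to -0.97. Without WT APR-246 library 1 the value was -1.13 (adjusted p = 0.00174).

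CEBPG (chr19:33373330-33382686) and CEBPB (chr20:50190734-50192689) are C/EBP factors that pair with ATF4 on its composite element, CEBPG without a strong activation domain of its own. For CEBPG the 6 solvent libraries ranged from 59.8 to 183 CPM with a median of 122, but this range was split by library number. Library 1 of each solvent group was at 176 to 183 CPM and library 2 at 59.8 to 67.9. Irradiated libraries were at 15.3 to 39.4 CPM and those of the combination at 13.9 to 42.4, all below every solvent library. CEBPG fell, with log2 differences of -2.12 ± 0.39 after irradiation (adjusted p = 0.00265) and -1.96 ± 0.39 after the combination (adjusted p = 0.00375). Its call after APR-246 (-1.55 ± 0.39, adjusted p = 0.0432) was lost without any 1 of the 12 libraries but WT APR-246 library 1 and Mutant APR-246 library 1, at -1.13 to -1.71, and by edgeR (adjusted p = 0.0719). Leaving out WT APR-246 library 1 gave -1.96 (adjusted p = 0.00221).

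For CEBPB the split by library number ran the other way from CEBPG, library 2 being higher in each solvent group. Its solvent libraries 1 and 2 were at 200 and 615 CPM in WT, 325 and 614 in Mutant, with 302 and 437 in Null. Treated libraries were at 124 to 353 CPM, and 8 of 18 lay below every solvent library, so the groups overlap. The averaged differences were -1.04 ± 0.40 after APR-246 (adjusted p = 0.200), -0.64 ± 0.40 after irradiation (adjusted p = 0.317) and -0.99 ± 0.40 after the combination (adjusted p = 0.121). Without any 1 library these values ranged from -1.41 to -0.67, from -1.02 to -0.27 and from -1.37 to -0.62, the lower end of each without WT solvent library 1 and the upper end without WT solvent library 2. At the lower end the value of the combination was called. Leaving out WT APR-246 library 1 gave -1.11 after APR-246. DESeq2 called CEBPB after APR-246 and the combination (adjusted p = 0.0205 and 0.0196). With the slope of each library's values on gene GC percent as a covariate, CEBPB was called in all 3 comparisons, at -1.15, -1.11 and -1.11 (adjusted p = 0.000361, 0.000359 and 0.000184), which moved the irradiation value by more than 1.5 times.

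DDIT3 (chr12:57516588-57521737), which encodes the pro-apoptotic factor CHOP, was lower in nearly every treated library. In solvent, libraries 1 and 2 were at 55.6 and 26.7 CPM in WT, 54.4 and 33.6 in Mutant, with 78.5 and 32.4 in Null. After APR-246 they were at 52.998 and 2.28 CPM in WT, 7.46 and 2.38 in Mutant, with 8.27 and 8.53 in Null. Apart from WT APR-246 library 1, no treated library exceeded 22.4 CPM, and 17 of 18 lay below every solvent library. DDIT3 fell, with log2 differences of -2.54 ± 0.47 after APR-246 (adjusted p = 0.00901), -2.23 ± 0.47 after irradiation (adjusted p = 0.00552) and -2.32 ± 0.47 after the combination (adjusted p = 0.00375). Without WT APR-246 library 1 the APR-246 value was -3.20. DDIT3 shares 355 exon bases with MARS (MARS1, methionyl-tRNA synthetase) and 58 with MBD6 on the other strand. MARS had a median of 232 CPM over the libraries, and the strand setting of the counting is not given in the sources used here, so the DDIT3 level is uncertain.

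ATF5 (chr19:49928702-49933935), a relative of ATF4 with the same kind of translational control and a role in mitochondrial stress, was the only member with all 18 treated libraries below every solvent library. Solvent libraries were at 64.7 to 108 CPM with a median of 74.0. After APR-246 the range was 19.9 to 61.0 CPM, its top being WT APR-246 library 1, after irradiation 11.9 to 20.8 CPM and after the combination 11.3 to 33.6 CPM. The averaged differences were -1.49 ± 0.32 (adjusted p = 0.0195), -2.26 ± 0.32 (adjusted p = 0.000535) and -1.99 ± 0.32 (adjusted p = 0.000891). The first call was lost without library 2 of any 1 of the 6 solvent and APR-246 groups, with values of -1.27 to -1.49. When WT APR-246 library 1 was left out it was -1.70 (adjusted p = 0.00541). ATF5 shares 626 exon bases with NUP62 on the other strand (median 120 CPM), which leaves its level uncertain as well.

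TRIB3 (chr20:362835-397559), a pseudokinase that ATF4 and DDIT3 induce and that restrains ATF4 in turn, was second to ATF4 in median level per length in solvent. In solvent, libraries 1 and 2 were at 437 and 768 CPM in WT, 413 and 829 in Mutant, with 645 and 914 in Null. After APR-246 they were at 451 and 64.3 CPM in WT, 233 and 102 in Mutant, with 217 and 130 in Null. Irradiated libraries were at 61.3 to 178 CPM and those of the combination at 51.7 to 164, so only WT APR-246 library 1 overlapped with solvent. TRIB3 fell, with log2 differences of -2.03 ± 0.45 after APR-246 (adjusted p = 0.0215), -2.53 ± 0.45 after irradiation (adjusted p = 0.00208) and -2.93 ± 0.45 after the combination (adjusted p = 0.000621). As for ATF5, the first call was lost without library 2 of any 1 of the 6 groups, here with values of -1.62 to -1.92. Leaving out WT APR-246 library 1 gave -2.45 (adjusted p = 0.00215).

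NUPR1 (chr16:28532708-28539174), a small chromatin-bound stress protein, was expressed near the limit of detection. Its solvent libraries held 39 to 104 reads, at 1.87 and 1.86 CPM in WT, 0.692 and 0.900 in Mutant, with 1.85 and 1.67 in Null. WT APR-246 library 1 held 81 reads (1.40 CPM) and library 2 held 0, which allows up to 0.0551 CPM (3 reads, counting error only). Small counts were mostly even, so reads may not be independent and this bound may be too low. The other 16 treated libraries held 1 to 13 reads, and all treated libraries but WT APR-246 library 1 were below every solvent library. On the scale with the pseudocount of 0.5, which understates changes at such levels, the averaged differences were -1.496 ± 0.23 (adjusted p = 0.00477), -1.61 ± 0.23 (adjusted p = 0.000473) and -1.73 ± 0.23 (adjusted p = 0.000238). The first was -1.79 without WT APR-246 library 1.

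CHAC1 (chr15:40952962-40956519), the cytosolic gamma-glutamylcyclotransferase that degrades glutathione, is the enzyme at the output end of the ATF4, ATF3 and DDIT3 chain. In solvent, libraries 1 and 2 were at 141 and 272 CPM in WT, 101 and 139 in Mutant, with 257 and 262 in Null. After APR-246 they were at 133 and 10.9 CPM in WT, 28.3 and 20.6 in Mutant, with 32.7 and 28.1 in Null. After irradiation they were at 16.1 and 28.9 CPM in WT, 26.1 and 26.5 in Mutant, with 28.6 and 32.6 in Null. After the combination they were at 13.4 to 35.5 CPM. Apart from WT APR-246 library 1, the treated libraries of all lines lay between 10.9 and 35.5 CPM, below every solvent library. CHAC1 fell, with log2 differences of -2.64 ± 0.46 after APR-246 (adjusted p = 0.00761), -2.81 ± 0.46 after irradiation (adjusted p = 0.00110) and -3.05 ± 0.46 after the combination (adjusted p = 0.000538). These calls held without any 1 library, and without WT APR-246 library 1 the APR-246 value was -3.18.

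**Figure D2:**
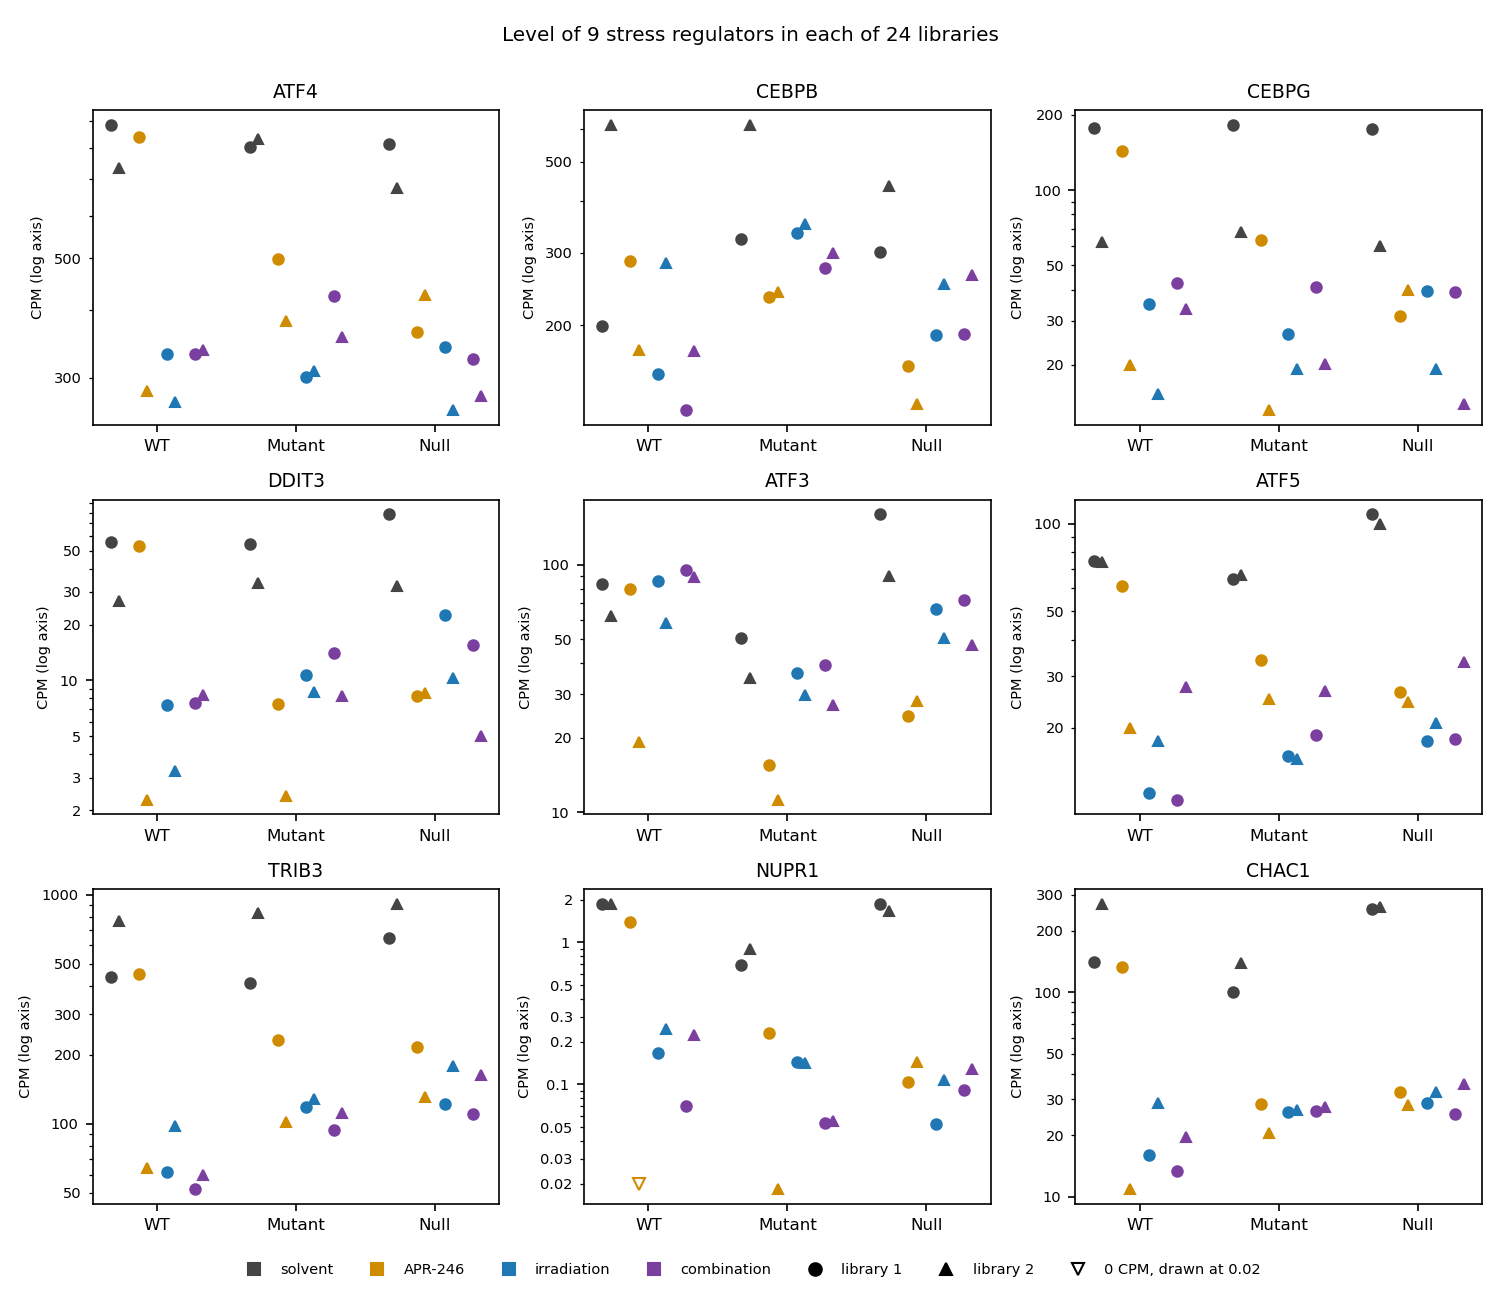
CPM on a log axis of each member in each of the 24 libraries, by line on the x axis, with treatment as colour, library 1 as circles, library 2 as triangles and a value of 0 as an open triangle. For ATF4, DDIT3, TRIB3, NUPR1 and CHAC1 the solvent libraries and WT APR-246 library 1 form the upper set and the other 17 treated libraries the lower one, whereas ATF3 and CEBPB overlap.

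ATF3 (chr1:212565334-212620777), an early stress factor that represses or activates depending on its partner, followed APR-246 and irradiation differently. In solvent, libraries 1 and 2 were at 83.4 and 61.9 CPM in WT, 50.6 and 35.0 in Mutant, with 160 and 89.9 in Null. After APR-246 they were at 79.4 and 19.3 CPM in WT, 15.5 and 11.2 in Mutant, with 24.6 and 28.1 in Null. After irradiation they were at 86.3 and 58.4 CPM in WT, 36.7 and 29.7 in Mutant, with 66.1 and 50.6 in Null. After the combination they were at 95.2 and 89.4 CPM in WT, 39.4 and 27.1 in Mutant, with 71.7 and 47.3 in Null. In Mutant and Null both APR-246 libraries were below every other library of their line, and in WT this held for library 2 alone. The averaged difference from solvent was -1.63 ± 0.21 after APR-246 (adjusted p = 0.00290), -0.49 ± 0.21 after irradiation (adjusted p = 0.132) and -0.48 ± 0.21 after the combination (adjusted p = 0.148). The first was -1.92 without WT APR-246 library 1.

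Comparing treated groups with each other leaves the solvent libraries out. In these comparisons ATF3 was the only member called. Averaged over the lines it was higher after the combination than after APR-246 alone by 1.16 ± 0.21 on the log2 scale (adjusted p = 0.0112), where 0.943% of all genes were called higher. It was lower after APR-246 than after irradiation by -1.14 ± 0.21 (adjusted p = 0.0164), where 0.842% of all genes were called lower. The differences had the same sign in each line: 1.07, 1.15 and 1.25 for the combination minus APR-246 in WT, Mutant and Null, and -0.96, -1.33 and -1.14 for APR-246 minus irradiation, none of them called by itself. Within lines 0 of 81 member differences between treated groups were called by limma, edgeR or DESeq2, and 7 had an unadjusted p below 0.05. The all-gene share called higher for the combination minus APR-246 was 0.377, 0 and 0.0242% in WT, Mutant and Null and that called lower 0.0339, 0 and 0%. For APR-246 minus irradiation no gene was called higher within a line, and 0.232, 0 and 0.00968% were called lower. In the averages 0.14% of genes were called lower for the former and 0.0435% higher for the latter. The first call held without any 1 library. The second was lost, at -1.12 to -1.14, without Mutant APR-246 library 2, Mutant irradiation library 1, Null APR-246 library 1 or 2, or Null irradiation library 2. Both were lost on the deposited CPM without TMM scaling (adjusted p = 0.0504 and 0.0980). Without WT APR-246 library 1 they were 1.44 and -1.43. For the combination minus irradiation 0 members were called by limma, edgeR or DESeq2, with 0 at an unadjusted p below 0.05, and ATF3 differed by 0.02 ± 0.21. The averaged combination and irradiation values of the 9 members differed by -0.40 to 0.26.

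JUN, the AP-1 subunit that can pair with ATF3, was named after its values were seen and, like ATF3, was called lower after APR-246 only. Its APR-246 libraries were at 42.7 to 136 CPM with a median of 58.7, against 114 to 256 CPM with a median of 139 in solvent, 109 to 214 after irradiation and 111 to 263 after the combination. The averaged difference from solvent was -1.24 ± 0.22 after APR-246 (adjusted p = 0.00860), -0.0031 ± 0.22 after irradiation (adjusted p = 0.995) and -0.06 ± 0.22 after the combination (adjusted p = 0.893). JUN was higher after the combination than after APR-246 by 1.18 (adjusted p = 0.0171) and lower after APR-246 than after irradiation by -1.23 (adjusted p = 0.0163). The former call was lost, at 1.08 to 1.21, without any 1 of WT combination library 2, Mutant APR-246 library 2, Mutant combination library 1, Null APR-246 library 1 or 2 and Null combination library 2. The latter was lost, at -1.16 to -1.23, without WT irradiation library 2, Mutant APR-246 library 2, Mutant irradiation library 1, Null APR-246 library 2 or Null irradiation library 2. After APR-246 JUN was at -1.46 without WT APR-246 library 1, and the differences from the combination and irradiation were 1.40 and -1.46. FOS and FOSB, other AP-1 subunits, were also named after their values were seen. FOS rose after irradiation by 0.70 ± 0.15 (adjusted p = 0.00618) and after the combination by 0.52 ± 0.15 (adjusted p = 0.0278), and was at 0.04 ± 0.15 after APR-246 (adjusted p = 0.947), or -0.05 without WT APR-246 library 1. It was lower after APR-246 than after irradiation by -0.66 (adjusted p = 0.0489). The FOS call after the combination was lost without any 1 of 10 of the 12 libraries (0.41 to 0.54), and the call against irradiation without any 1 of 11 (-0.56 to -0.71), all but WT APR-246 library 1. FOSB fell after APR-246 (-1.07 ± 0.27, adjusted p = 0.0371). Omitting any 1 of 7 libraries lost the FOSB call, at -0.80 to -1.13. FOSB was at -0.16 after irradiation (adjusted p = 0.731) and -0.80 after the combination (adjusted p = 0.0560), and the latter was called by edgeR and DESeq2 (adjusted p = 0.0452 and 0.0156). Leaving out WT APR-246 library 1 gave -1.34 for FOSB after APR-246.

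**Figure D3:**
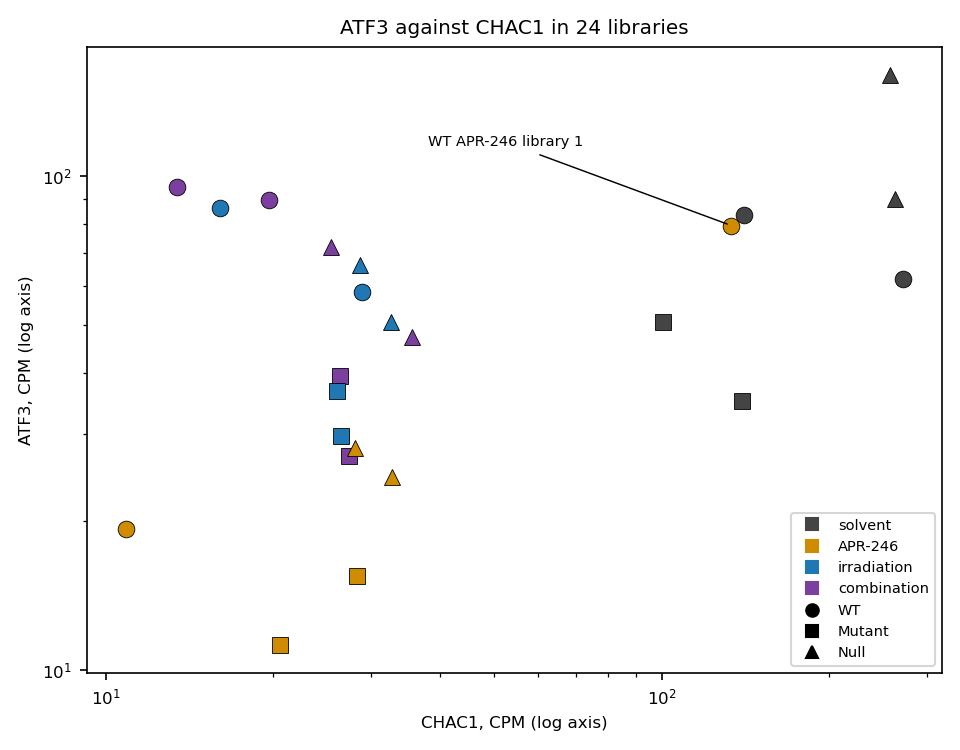
ATF3 against CHAC1 in CPM, both on log axes, 1 point per library, with treatment as colour and line as shape. CHAC1 separates solvent (and WT APR-246 library 1) on the right from the 17 other treated libraries on the left, at 35.5 CPM or below, while along ATF3 the APR-246 libraries lie at 11.2 to 28.1 CPM apart from WT APR-246 library 1, with Mutant combination library 2 (27.1 CPM) among them.

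Within single lines, 80 of 81 member differences from solvent were below 0, and the exception was ATF3 in the WT combination (0.09 ± 0.36). Only 9 of the 81 were called, although 67 had an unadjusted p below 0.05. In the WT line 5 members were called lower after the combination, where 0.929% of all genes were: CHAC1 (-3.81 ± 0.79, adjusted p = 0.0161), TRIB3 (-3.63 ± 0.78, adjusted p = 0.0199), ATF5 (-2.29 ± 0.56, adjusted p = 0.0425), NUPR1 (-1.97 ± 0.39, adjusted p = 0.0128) and ATF4 (-1.53 ± 0.37, adjusted p = 0.0383). After irradiation NUPR1 was the 1 member called in WT (-1.76, background 0.59%) and in Null (-2.07, background 0.266%). It was also the 1 called after the combination in Null (-1.98, background 0.876%). In the treated libraries of these comparisons NUPR1 held 3 to 13 reads. Neither edgeR nor a pseudocount of 0.1 called any member there. ATF3 was the 1 member called after APR-246 in Null (-2.34 ± 0.36, adjusted p = 0.0194, background 0.102%). No member was called higher in any line, while among all genes 0, 0.968 and 1.3% were called higher in WT after APR-246, irradiation and the combination, 0, 0.0677 and 0.261% in Mutant, and 0.029, 0.411 and 1.07% in Null. None was called lower in Mutant, where 7 members had an unadjusted p below 0.05 after each treatment, and 0, 0.00968 and 0.0871% of all genes were called lower after APR-246, irradiation and the combination. In the WT combination the calls of CHAC1, TRIB3 and NUPR1 survived without WT solvent library 1 only, and those of ATF4 and ATF5 were lost without any 1 of the 4 libraries. The other 4 calls were lost without any 1 of their 4 libraries, with values of -1.53 to -2.001 for NUPR1 in WT, -1.92 to -2.23 and -1.83 to -2.14 for NUPR1 in Null, and -2.205 to -2.47 for ATF3.

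In WT no member was called after APR-246 by limma, edgeR or DESeq2, with 6 at an unadjusted p below 0.05 and no gene of the whole table called. The 2 libraries differed for every member. Relative to the mean of WT solvent, the median log2 position of the 9 members was -0.52 in library 1 and -2.29 in library 2, while the 16 other treated libraries lay between -2.31 and -1.13. Library 1 was within the range of the 6 solvent libraries for 8 members and just below it for ATF5. The ratio of library 1 to library 2 was 23.3 for DDIT3, 12.3 for CHAC1, 7.14 for CEBPG, 7.01 for TRIB3 and 1.65 for CEBPB. Without library 1, and with the remaining library assumed to vary like the other groups, 4 members were called lower in WT, where 0.407% of all genes were: CHAC1 (-4.07), DDIT3 (-3.78), NUPR1 (-2.28) and ATF3 (-1.83).

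How far the combination lay from APR-246 and irradiation effects added together was also computed for the members. In 35 of 36 cases, 9 members in each line and in the average, it was above 0, meaning that the combination lay higher than the sum of both falls on the log2 scale. The average is the mean of the same 3 lines, so its 9 values are not separate cases. The median of all genes tested was 0.0191 in the average. No member value was called by limma or edgeR. An unadjusted p below 0.05 was found for 18, 8 of them in the average, and DESeq2 called 6, 5 of them in the average. Among all genes limma called 0.00484% higher in the average, and DESeq2 1.2% there and 0, 0 and 0.0726% in WT, Mutant and Null. The averaged values were largest for DDIT3 (2.45 ± 0.66, adjusted p = 0.154) and CHAC1 (2.40 ± 0.65, adjusted p = 0.154) and closest to the threshold for ATF3 (1.65 ± 0.29, adjusted p = 0.0667). Without WT APR-246 library 1 limma called 11 of the 36, and of all genes 1.37% higher in the average and 0.0358, 0 and 0.0626% in WT, Mutant and Null. In the average these were ATF4 (1.20), CEBPG (2.12), DDIT3 (3.11), ATF3 (1.93), ATF5 (1.96), NUPR1 (1.67) and CHAC1 (2.94). It called 3 without WT APR-246 library 2, with ATF3 at 1.36 in the average, where 0.0847% of all genes were called higher. These values use the same solvent libraries as the falls themselves.

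Between lines in solvent, 1 of 27 member differences was called, where 0.213 to 1.29% of all genes were called in each direction. ATF3 was lower in Mutant than in Null by -1.68 ± 0.36 on the log2 scale (adjusted p = 0.0185), where 1.29% of all genes were called lower, and its Mutant libraries (50.6 and 35.0 CPM) lay below both Null libraries (160 and 89.9). That call was lost without any 1 of the 4 libraries, at -1.54 to -1.81. WT lay between them at -0.84 from Null (unadjusted p = 0.0330, adjusted p = 0.571). NUPR1 was at -0.92 in Mutant against Null (unadjusted p = 0.0310, adjusted p = 0.345), with its Mutant libraries also the lowest. ATF4 itself differed between lines in solvent by -0.05 to 0.02. For the difference in response between lines 0 of 81 values were called by limma, edgeR or DESeq2, and 3 had an unadjusted p below 0.05. Of all genes at most 0.0387% were called in either direction in any of these comparisons. The median standard error of such a difference in response over all genes was 0.45.

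Library number moved with the level of several members. Library 1 was higher than library 2 in 11 of 12 groups for CEBPG (GC content 43.9%) and ATF3 (46.7%), and in 10 for DDIT3 (49.7%). It was higher in 5 groups for NUPR1 (50.3%), 8 for ATF4 (56.7%) and 6 for ATF5 (60.0%). It was higher in only 3 groups for TRIB3 (60.9%) and CHAC1 (62.6%) and in 2 for CEBPB (66.2%). In solvent the ratio of the libraries was 2.69 to 2.95 for CEBPG, with library 1 higher in each line, and for CEBPB library 2 was 1.45 to 3.07 times higher. Over all genes, the slope of a library's values on gene GC percent was lower in library 1 than in library 2 in 11 of 12 groups. With that slope in the model, 50 of the 81 differences from solvent within lines were called lower and 0 higher, against 9 without it, but the share of all genes called lower was higher as well, at 0 to 13.7% by comparison, and none of the averaged values of the members changed sign.

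**Figure D4:**
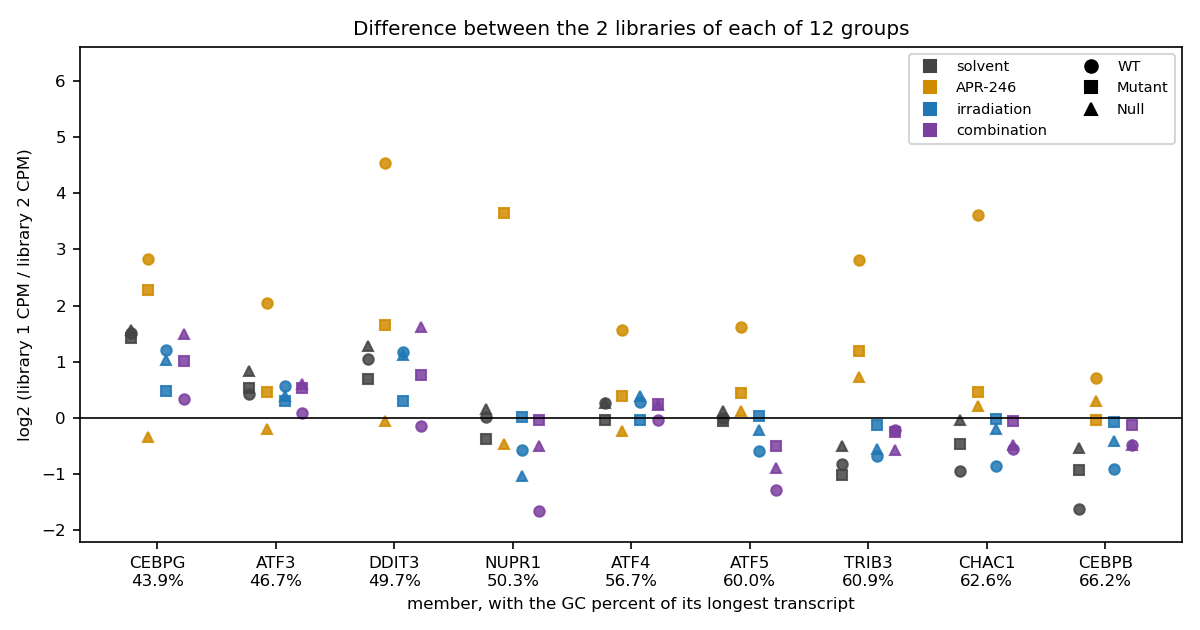
Log2 ratio of library 1 to library 2 in each of the 12 groups for each member, ordered on the x axis by the GC percent of the gene; colour gives the treatment and shape the line, and the WT APR-246 pair of NUPR1 is left out because its library 2 is at 0. Ratios lie mostly above 0 for the GC-poor CEBPG, ATF3 and DDIT3 and mostly below 0 for TRIB3, CHAC1 and CEBPB, and the WT APR-246 pair stands highest for each of the other 8 members.

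Levels per kilobase of exon give the order of the members within a treatment. In solvent the medians over 6 libraries were 322 CPM per kb for ATF4, 206 for TRIB3, 195 for CEBPB, 96.6 for CHAC1, 33.7 for DDIT3, 27.7 for CEBPG, 25.1 for ATF5, 18.0 for ATF3 and 0.310 for NUPR1. TRIB3 and CEBPB, and likewise DDIT3, CEBPG, ATF5 and ATF3, were neighbours whose ranges over the solvent libraries overlapped. The range of CEBPB also overlapped with those of ATF4 and CHAC1, and that of CHAC1 with those of TRIB3 and DDIT3. After irradiation CEBPB (137) and ATF4 (121) led, with overlapping ranges, and TRIB3 followed at 34.9. TRIB3 and CEBPB, close together in solvent, thus stood apart.

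Upstream of ATF4, the share of eIF2 signalling genes called lower was near that of all genes after irradiation and the combination. After APR-246 it was above that of all genes, with 1 gene called. Of 16 kinases, eIF2 and eIF2B subunits, phosphatase subunits and sensors, 1 was called lower after each treatment, PPP1R15A, the inducible eIF2 phosphatase subunit and itself an ATF4 and DDIT3 target. PPP1R15A fell, with log2 differences of -1.95 ± 0.33 after APR-246, -1.74 after irradiation and -1.79 after the combination (adjusted p = 0.00709, 0.00323 and 0.00226). The first was -2.37 without WT APR-246 library 1. EIF2B1, a subunit of the eIF2B exchange factor and the 1 gene of the list called higher, rose after the combination (0.60 ± 0.13, adjusted p = 0.00660) and was at 0.26 and 0.24 after APR-246 and irradiation. It was named after its values were seen. With the GC slope in the model 4, 4 and 5 of the 16 were called lower and 3, 2 and 4 higher, where 13.9, 18.5 and 21.7% of all genes were called lower and 13.5, 18.8 and 22.2% higher. The medians of this list were -0.03, -0.08 and -0.04, close to those of all genes. Among 25 tested bZIP genes outside the members, 7 were called lower in each of the 3 comparisons. Without any 1 library the counts were 1 to 9 after APR-246 and 4 to 7 after irradiation and after the combination. After APR-246 1 was called lower without Mutant or Null APR-246 library 2, and 3 without WT APR-246 library 2 or library 2 of any solvent group. The count of 4 after irradiation came without Null solvent library 1, and that after the combination without either WT or Mutant combination library or Null combination library 2. Those called included the endoplasmic reticulum sensor ATF6 (-1.18, -1.62 and -1.44), JDP2, an ATF3 relative (-1.18, -1.62 and -1.67), and NFE2L1 (-1.10, -1.45 and -1.503). NFE2L2, the NRF2 gene, was called after irradiation (-1.41) and the combination (-1.07) but stood at -0.86 after APR-246 (adjusted p = 0.210). That APR-246 value was called with the GC slope (-0.77, adjusted p = 3.4e-05) and with library number as a block (adjusted p = 0.00631). The APR-246 values of ATF6, JDP2, NFE2L1 and NFE2L2 without WT APR-246 library 1 were -1.48, -1.48, -1.35 and -1.10, and the median of the bZIP genes was -0.50. With the GC slope 19, 15 and 18 bZIP genes were called lower and 0, 1 and 1 higher. The APR-246 calls of JDP2, ATF6 and NFE2L1 were lost without any 1 of 9, 3 and 2 of the 12 libraries, at -0.87 to -1.25, -1.06 to -1.17 and -1.01 to -1.08. Those of NFE2L2 were lost without Null solvent library 1 after irradiation (-1.24) and without any 1 of 8 libraries after the combination (-0.86 to -1.18).

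Downstream of ATF4, 19 of 34 tested targets outside the members were called lower after APR-246 and 27 after irradiation and after the combination, and 0 were called higher. Their medians were -1.05, -1.53 and -1.48. The largest falls after irradiation among those called in most comparisons were in NIBAN1 (-2.25, -3.32 and -3.29), the cystine transporter SLC7A11 (-1.54, -3.11 and -2.44), the mTORC1 inhibitor DDIT4 (-2.61, -2.78 and -3.08) and the secreted stanniocalcin STC2 (-2.22, -2.68 and -2.45). SLC7A11 was not called after APR-246 (adjusted p = 0.155), but was with the GC slope in the model (-1.41, adjusted p = 0.0122). It was at -2.13 without WT APR-246 library 1. That omission put NIBAN1, DDIT4 and STC2 at -2.78, -2.97 and -2.73 and the median of the list at -1.27. The count after APR-246 was 6 without Mutant APR-246 library 2 or Null APR-246 library 2, 8 without WT solvent library 2, 12 without Mutant or Null solvent library 2, 13 without WT APR-246 library 2 and 16 to 23 without any 1 of the others. It stayed at 24 to 26 after irradiation and 24 to 28 after the combination. This list was written with earlier results of these samples known and is not independent evidence of its direction.

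The XBP1 and ATF6 arm of the unfolded protein response, which supplies chaperones to the endoplasmic reticulum, had a smaller share of calls than the ATF4 targets. Its share called lower was still above that of all genes in each comparison. Of its 18 genes 3, 5 and 6 were called lower and 0 higher, with medians of -0.27, -0.39 and -0.32. Without TMM scaling 1, 3 and 3 were called lower and as many higher, and with the GC slope 9, 9 and 12 lower and 2, 1 and 3 higher. After APR-246 0 or 1 was called without any 1 of the libraries other than WT APR-246 library 1, Mutant APR-246 library 1 and Null solvent library 2. After the combination 3 were called without WT or Mutant combination library 2 or Null solvent library 1. HSPA5, the chaperone BiP, was at a median of 2916 CPM in solvent and 819 after irradiation (-1.37, -1.75 and -1.90). DNAJB9 (-1.27, -1.54 and -1.38) and HYOU1 (-1.03, -1.27 and -1.48), chaperones of the same compartment, were called in all 3 comparisons, and SEL1L, of the degradation complex, after irradiation and the combination (-1.53 and -1.48). After APR-246 SEL1L was called by DESeq2 (adjusted p = 0.0498) and with the GC slope (-0.92, adjusted p = 1.5e-05). The APR-246 calls of HSPA5, DNAJB9 and HYOU1 were lost without any 1 of 9, 8 and 5 of the 12 libraries, at -1.005 to -1.41, -1.01 to -1.34 and -0.96 to -0.996. The irradiation and combination calls of SEL1L were each lost without any 1 of 4 libraries (-1.30 to -1.38 and -1.27 to -1.39). Without WT APR-246 library 1 HSPA5, DNAJB9 and HYOU1 were at -1.73, -1.53 and -1.28 after APR-246, and the median of the list was -0.35. The other calls were CANX, a lectin chaperone, after irradiation (-0.98) and the combination (-0.77) and SYVN1, a ubiquitin ligase, after the combination (-0.58). The combination calls of CANX and SYVN1 were lost without any 1 of 8 and 9 of the 12 libraries. SDF2L1, an endoplasmic reticulum chaperone cofactor named after its values were seen, was at a median of 74.3 CPM in solvent and 164 after irradiation. Its differences were 0.79, 1.12 and 1.03 (adjusted p = 0.349, 0.0671 and 0.0891). The irradiation value of SDF2L1 was called by DESeq2 (adjusted p = 0.0327), without TMM scaling (adjusted p = 0.00590), and without WT or Mutant solvent library 2. With the GC slope SDF2L1 was called after all 3 treatments (adjusted p = 0.000882, 0.00123 and 2.2e-05).

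Around CHAC1, a minority of the other genes of glutathione metabolism were called. The share called lower was still above that of all genes in each comparison, but SLC3A2 and SLC7A11 are also in the list of ATF4 targets. SLC3A2 was the only gene called lower after APR-246, and SLC3A2 and SLC7A11 were the only ones after irradiation. Of 14 genes 1, 2 and 4 were called lower and 0, 1 and 1 higher, with medians of -0.11, -0.27 and -0.22. With the GC slope 5, 7 and 8 were called lower and 2, 2 and 3 higher. The median after APR-246 was -0.12 without WT APR-246 library 1, with SLC3A2 at -1.94. The count called lower after the combination was 2 without library 2 of any solvent group, either WT combination library, or library 1 of the Mutant or Null combination. SLC3A2, the heavy chain that pairs with SLC7A11, fell (-1.63, -1.90 and -1.92), the first call being lost without library 2 of any 1 of the 6 groups (-1.31 to -1.70). SLC7A11 was given with the ATF4 targets, and the other genes called lower after the combination were GSS, glutathione synthetase (-0.82, adjusted p = 0.0399), and GGT7 (-0.65, adjusted p = 0.0350), calls lost without any 1 of 7 and 8 of the 12 libraries. GSS after irradiation (-0.74, adjusted p = 0.0625) was called by DESeq2 (adjusted p = 0.0276). GCLC, the catalytic subunit of glutathione synthesis, was at -0.21, -0.88 and -0.64 (adjusted p = 0.829, 0.0615 and 0.172). Its call after irradiation was gained without WT irradiation library 1 or Mutant solvent library 2 (-1.04 and -1.05), by DESeq2 (adjusted p = 0.0169) and with the GC slope (-0.52, adjusted p = 0.000455), which also called GCLC after the combination (-0.55, adjusted p = 0.000105). GCLM, the modifier subunit, was at 0.10, -0.30 and 0.19, and GGCT at 0.14, 0.03 and 0.30, none of them called. The peptidase LAP3 rose after irradiation (0.50 ± 0.12, adjusted p = 0.0158) and the combination (0.74 ± 0.12, adjusted p = 0.00109), the former lost without Mutant irradiation library 2 or Null irradiation library 1 (0.45 to 0.50).

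Of the paralogs of the members, JDP2 was the 1 called, and after all 3 treatments, whereas ATF3 was called after APR-246 only. CHAC2, the constitutive relative of CHAC1, was at a median of 4.12 CPM in solvent and at -0.15, -0.25 and 0.27 on the log2 scale. TRIB1 (-0.08, 0.34 and 0.03), TRIB2 (0.49, 0.36 and 0.46), CEBPA (-0.11, 0.61 and 0.20) and CEBPD (-0.85, -0.46 and -0.58) were not called in any of the 3 comparisons. With the GC slope CEBPD was called lower (-0.96, -0.93 and -0.70, adjusted p = 0.00491, 0.00568 and 0.0181) and TRIB2 higher (0.56, 0.68 and 0.54, adjusted p = 0.00475, 0.000977 and 0.00329) after each treatment, and TRIB1 higher after irradiation (0.34, adjusted p = 0.0185). Without WT APR-246 library 1 the APR-246 values of CHAC2, TRIB1, TRIB2, CEBPA and CEBPD were -0.22, -0.10, 0.53, 0.05 and -0.89. CEBPE and NUPR2 were too low to be tested, at no more than 0.175 and 0.0367 CPM in any library.

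Likeness of pattern was described by Pearson correlation of log2 values over the 24 libraries, which share lines, treatments and the library-number shift. Among genes outside the members, CHAC1 was closest to SLC3A2 (r = 0.98), KLHDC7B, GPT2, WARS1 and SARS1 (each 0.97). ATF4 was closest to WARS1 and SLC6A9 (each 0.97), RBCK1 and GARS1 (each 0.96) and LINC00623 (0.95). Among the members CHAC1 was the nearest to ATF4 (0.93), ATF5 (0.94), TRIB3 (0.96) and NUPR1 (0.95), and TRIB3 the nearest to CHAC1 and to CEBPB (0.73). CEBPG and DDIT3 were nearest to each other (0.89). ATF3 was nearest to NUPR1 (0.58) and was the farthest member from ATF4 (0.26), ATF5 (0.32), TRIB3 (0.29), CHAC1 (0.48) and CEBPB (0.13).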

How the data were processed

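Poly(A)-selected RNA from 24 libraries was sequenced, and the deposited values are CPM per gene, which the authors scaled to 1000000 assigned reads per library. Per the submitters' processing notes, FastQC, STAR and featureCounts (Subread) were used with GRCh38.p13. Versions, annotation release and strand setting are not given in the sources used here. All CPM values came out as whole reads within 0.05 read, and the recovered totals give the depth, so 3 reads correspond to 0.0517 to 0.0564 CPM. Of the values of 2 to 9 reads, 74.5 to 81.5% were even.

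Values were scaled by TMM factors, and log2(CPM + 0.5) was fitted with limma 3.58.1 (R 4.3.3), with trend and robust options, 12 group coefficients and 12 residual degrees of freedom. Genes passed edgeR's filterByExpr with a minimum count of 10. P-values were two-sided and adjusted by Benjamini-Hochberg over the 20668 genes in each of 40 comparisons, and a gene was called at 0.05. Averaged comparisons take the mean of the 3 lines. The members, all lists and the named genes were chosen with earlier results of these data known. Named by rule are the members, their paralogs, GCLC, GCLM and GGCT, and the 5 genes most like ATF4 and CHAC1. The rule also names up to 4 genes of a list that were called in most of the averaged treatment comparisons (by change after irradiation). JUN, FOS, FOSB, EIF2B1, CANX, SYVN1, SDF2L1, GSS and GGT7 fall outside this rule and were named after their values were seen. Alternatives were edgeR 4.0.16 and DESeq2 1.42.0 on the recovered reads, pseudocounts of 1 and 0.1, no filter, no TMM, DESeq2 size factors, replicate blocks, a GC-slope covariate, the compared lines alone, and each library left out. On recovered reads edgeR called 596, 2458 and 2555 genes in the averaged comparisons of APR-246, irradiation and the combination with solvent, and limma called 650, 2679 and 2876. The scripts were tested on simulated data. Symbols, lengths and coordinates come from GENCODE 29 and promoters from RefSeq. The level of the gene that defines the lines is not reported here.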

Additional observations from a re-analysis of the deposited data

How the results depend on the processing

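Counts are of members called. In the averaged comparisons with solvent, no filter gave 5 after APR-246, and leaving out 1 library gave 4 to 8. Without TMM scaling, which moved the median of all genes by -0.233 to 0.237 on the log2 scale, the averaged comparisons of the combination and of irradiation with APR-246 gave 0 and 0, the lines in solvent 0, WT irradiation 4, and Null APR-246, irradiation and combination 0, 2 and 3. With 1 library left out, APR-246 against irradiation gave 0 to 1, lines in solvent 0 to 1, the departure from additivity 0 to 11, treated groups within lines 0 to 3, response differences 0 to 1, WT APR-246, irradiation and combination 0 to 4, 0 to 0 and 0 to 3, and each Null comparison 0 to 0.

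Within lines, DESeq2 gave 6 for WT irradiation, 2, 4 and 4 for Mutant APR-246, irradiation and combination, 6, 7 and 7 for Null, and 6 for the departure from additivity. The quasi-likelihood test of edgeR gave 0 for WT irradiation, 2 for the WT combination, and 0 for Null irradiation and combination. The GC slope gave 7 and 8 for WT irradiation and combination, 2, 3 and 6 for Mutant, 8, 8 and 8 for Null, 9 for the departure from additivity, and 3 for averaged APR-246 against irradiation, adding ATF4 and ATF5. The libraries of the compared lines alone gave 0 and 0 for WT irradiation and combination and 3, 2 and 2 for Null. This setting was not run for averages over lines. A pseudocount of 1 gave 2 for WT irradiation and 2, 2 and 2 for Null, and one of 0.1 gave 0 for WT irradiation and for Null irradiation and combination. No filter gave 0 for WT irradiation.

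The labels number the libraries without saying that a number is shared. The deviations of same-numbered libraries correlated above 0.1 in 55 of 66 pairs of groups (lowest -0.722, median 0.759, over 10744 genes). Within lines this held for 15 of 18 pairs (lowest -0.716). Null APR-246 was the 1 group whose GC slope was higher in library 1, at 0.142 against -0.0803 in library 2 (log2 per 10% GC). Since not every pair of groups correlated above 0.1, the main model does not treat the numbers as a pairing. A deviation shared by most groups therefore stays in its spread. It called 9 of the 81 differences from solvent within lines, against 47 with library number as a block. Per comparison, at most 0.929 and 6.51% of all genes were called lower in these fits. The replicate block gave 7 for WT irradiation, 3, 5 and 4 for Mutant APR-246, irradiation and combination, 6, 7 and 8 for Null, and 7 for the departure from additivity. A replicate block per line gave 7 for WT irradiation, 3 and 1 for Mutant irradiation and combination, 5, 6 and 8 for Null, and 6 for the departure from additivity. The GC slope with the replicate block gave 8 for WT irradiation, 4, 3 and 6 for Mutant, 8, 8 and 9 for Null, and 9 for the departure from additivity.

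The share of all genes called lower, over the 9 comparisons with solvent within lines, was 0 to 0.929% by the main model, 0 to 0.59% by edgeR, 0 to 2.68% by DESeq2, 0 to 6.51% with the replicate block, 0 to 5.05% with a block per line, 0 to 13.7% with the GC slope and 0 to 14.8% with both slope and block. With the replicate block CEBPA was called higher after irradiation (0.61, adjusted p = 0.0332) and 1, 5 and 5 eIF2 signalling genes lower. Leaving out a library also let more genes pass the filter on low values.

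No member's called difference changed sign under any of these settings. The causes of the changes in count were not tested. Each group had 2 libraries, and counting error was not compared with the spread between them. NUPR1 had at most 104 reads in a library.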
